A study of Mus musculus with 24 samples.

Results

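Interleukin-2 and the receptors that share the common gamma chain were followed by RNA sequencing in mouse CD4+ T cells during the first 24 h of activation. The 9 genes Il2, Il21, Il2ra, Il2rb, Il2rg, Il7r, Il15ra, Il21r and Jak3 were taken by name from the 22009 named genes of the series, of which 17936 were above 0 in any library, and all 9 were found. The cells were CD4+ T cells purified from the spleens of WT C57BL/6 mice by magnetic negative selection and pooled between mice. There were 2 libraries of resting cells, taken before any stimulus (0 h). Each of 18 further libraries held cells of 1 condition at 4, 8, 12, 16, 20 or 24 h after activation. The stimulus was plate-bound anti-CD3 and soluble anti-CD28, which stand in for the antigen signal and its costimulus. By the paper, cells were taken out of the cultures every 4 h, so the 6 libraries of a condition form 1 series and are not independent. Each of the 18 libraries is called a culture below. Th0 cultures received nothing else, IL-12 and anti-IL-4 were added for Th1, and IL-4 was added for Th2 together with anti-IFN-γ and anti-IL-12. In 4 libraries the cells had been stimulated for 16 h and were then kept with actinomycin, an inhibitor of transcription, for 0, 1, 2 or 4 h, and the skewing condition of these cells is not given. Each culture and time point was sequenced once from pooled cells, so the p-values below measure the spread between these libraries, which are not separate animals. In their titles the resting libraries have a tag that differs from that of the cultures, and a difference in preparation cannot be told apart from activation. The sources also differ in whether the starting cells were all CD4+ or only naive T cells.

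Interleukin-2, made by activated T cells, drives their division. Its receptor has an alpha chain (Il2ra, CD25), which raises the affinity for the cytokine, a beta chain (Il2rb, CD122), which it shares with the receptor for interleukin-15, and the common gamma chain (Il2rg). The gamma chain also completes the receptors for interleukins 4, 7, 9, 15 and 21, each with an alpha chain of its own. These include Il7r (CD127), whose ligand keeps resting T cells alive, Il15ra, which presents interleukin-15 to neighbouring cells, and Il21r. The kinase Jak3 binds the gamma chain inside the cell and, together with Jak1 on the partner chain, passes the signal to STAT proteins, above all STAT5. Interleukin-21 is a product of T cells that acts on B cells and T cells.

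Genes of this family respond to factors that the T cell receptor and the cytokines activate, and the promoters of the 3 members with the largest changes are therefore shown. They are the 250 bases before the annotated start, 5′ to 3′ on the strand of the gene, from RefSeq on GRCm38.p6. Capitals mark matches, on either strand, to the NFAT core TTTCC, the STAT5 motif TTCNNNGAA and the AP-1 motif TGANTCA.
Il2, chr3:37125955-37126204, minus strand: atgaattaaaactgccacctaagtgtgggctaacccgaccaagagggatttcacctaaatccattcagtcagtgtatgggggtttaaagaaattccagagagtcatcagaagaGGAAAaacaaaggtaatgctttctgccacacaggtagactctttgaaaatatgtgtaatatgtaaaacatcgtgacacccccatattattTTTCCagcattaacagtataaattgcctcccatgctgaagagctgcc
Il2ra, chr2:11642542-11642791, plus strand: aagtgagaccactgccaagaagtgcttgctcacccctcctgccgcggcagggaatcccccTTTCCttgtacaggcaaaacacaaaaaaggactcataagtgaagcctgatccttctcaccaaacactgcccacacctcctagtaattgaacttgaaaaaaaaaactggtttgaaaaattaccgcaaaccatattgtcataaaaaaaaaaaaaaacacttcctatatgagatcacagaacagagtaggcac
Il7r, chr15:9529877-9530126, minus strand: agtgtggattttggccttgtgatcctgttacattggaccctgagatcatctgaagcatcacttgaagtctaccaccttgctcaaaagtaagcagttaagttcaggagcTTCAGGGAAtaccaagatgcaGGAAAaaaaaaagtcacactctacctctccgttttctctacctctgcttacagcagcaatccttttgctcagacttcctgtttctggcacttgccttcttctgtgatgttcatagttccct

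The Il2 promoter held 2 NFAT cores, that of Il2ra held 1, and that of Il7r held 1 together with 1 STAT5 motif. Of 32851 promoters of this length, 55.6% held an NFAT core, 7.02% a STAT5 motif and 6.75% an AP-1 motif, so the core alone is common. The table of promoters had entries for 8 of the 9 genes and none for Il2rb. Among the others, Il21 had 3 NFAT cores, which 6.39% of all promoters reach, and Il15ra had 4 at the first of its starts and 1 AP-1 motif at the second.

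Messages of many cytokines carry the pentamer ATTTA in the 3′ UTR, an element known from short-lived transcripts. The Il2 transcript (GENCODE M21) had 7 pentamers in 581 bases, or 12.05 per kb, a density that 0.461% of 10189 genes reached. The stretch of 30 bases with the most of them is shown, with the pentamers in capitals.
Il2, chr3:37121040-37121069, minus strand: ctATTTATTTAaatATTTAactttaATTTA

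The density was 4.68 per kb in Il15ra, 3.49 in Il21, 2.33 in Il7r, 2.07 in Il21r, 1.17 in Il2ra and 0.901 in Il2rb, against a median of 1.33 over all genes. The 3′ UTRs of Il2rg and Jak3 held none.

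Expression is given as RPKM, reads scaled to the length of the transcript and to the mapped reads of the library, as deposited, so levels can be set against each other between genes of different length. The values of genes with 1 transcript gave 17512385 to 33017133 mapped reads per library. For Il2, Il7r and Il21r the values were whole multiples of 1 read and have 95% intervals of counting error, whereas those of the other 6 genes have none. Differences were tested with limma on log2(RPKM + 0.5), which understates changes of low genes, and a gene is said to have risen, fallen or differed where its adjusted p was under 0.05 and the change at least 2-fold. All 9 genes passed the filter of a mean of at least 1 RPKM. The T cell genes Cd3e and Cd4 had at least 101 and 111 RPKM in every time-course library, and the CD8 genes Cd8a and Cd8b1 at most 4.51 and 11.3 RPKM in the cultures. The 7 T cell genes in the table summed to 1843 to 1859 RPKM at rest, 1147 to 1256 at 4 h, where 6 of the 7 were below rest, and 1246 to 1460 at 24 h. Genes of monocytes and macrophages, 10 in the list, summed to 528 to 548 RPKM at rest, 51.3 to 83.0 at 4 h and 9.94 to 14.4 at 24 h, and 8 genes of B cells summed to 82.1 to 92.0 at rest and 10.6 to 20.3 at 24 h. The 7 NK cell genes went from 178.7 and 178.9 RPKM at rest to 103 to 228 at 4 h and 77.0 to 100.4 at 24 h. Of 7 red blood cell genes, 6 were in the table and summed to 38691 and 42233 RPKM at rest, 29312 to 47024 at 4 h and 141 to 211 at 24 h. NK cells carry Il2rb and Il15ra is made by myeloid cells, and in such libraries fewer cells of a type and less RNA per cell cannot be told apart; the part of these cells in the changes from rest was not tested.

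**Figure D1:**
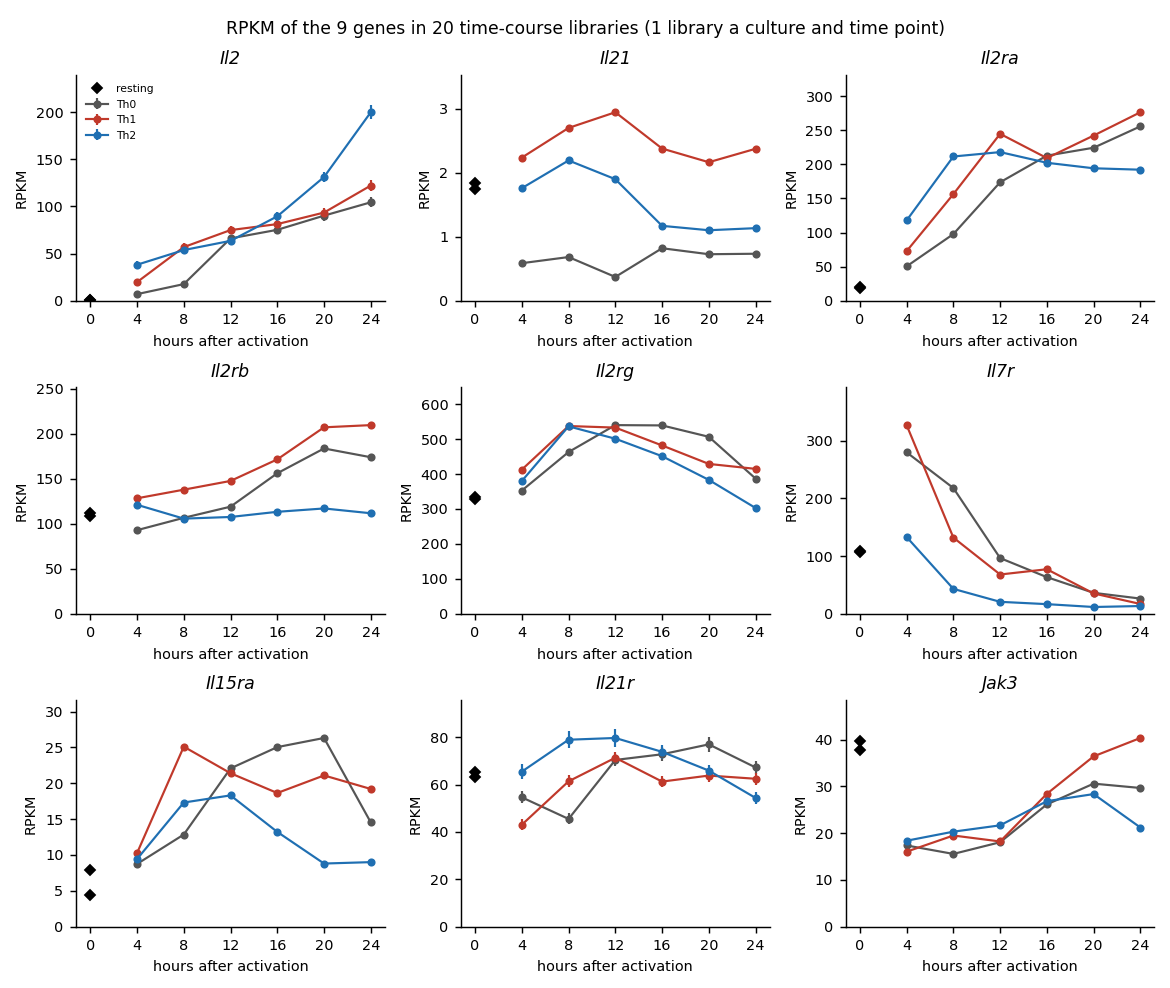
RPKM of each of the 9 genes (vertical axes, from 0, each panel with its own scale) against hours after activation, with the resting libraries as black diamonds and Th0, Th1 and Th2 as grey, red and blue lines of 1 library a point; bars on Il2, Il7r and Il21r are 95% intervals of counting error. Il2 climbs to 199.8 RPKM in Th2 at 24 h, Il7r falls from as much as 327 RPKM at 4 h to 13.3 to 26.2 RPKM at 24 h, and Il21 keeps the order Th1, Th2, Th0 at all time points.

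Per length, Il2rg was the most abundant of the 9 transcripts in all 24 libraries, between 303 and 540 RPKM. Il21 was at the other end, with a median of 1.76 RPKM and a rank of 8 or 9 among the 9 in all libraries. At rest the order below Il2rg was Il2rb (111 ± 2.80 RPKM, SD, n = 2), Il7r (107.5 ± 0.743), Il21r (64.1 ± 1.51), Jak3 (38.8 ± 1.43), Il2ra (18.9 ± 1.13), Il15ra (6.12 ± 2.44), Il21 (1.80 ± 0.0651) and Il2 (1.37 ± 0.00171). The order of 2 pairs of neighbours was not resolved. Il2rb had 108.5 and 112.5 RPKM and Il7r 108.1 and 107.0 RPKM, and both values of Il21, 1.75 and 1.85 RPKM, lay within the 95% intervals of counting error of Il2.

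Activation raised the ligand Il2 more than any other of the genes, and the mean of the 3 cultures was 15.8 times the resting mean at 4 h and 103.5 times at 24 h. Il2 (ENSMUSG00000027720.7, chr3:37120523-37125959, minus strand, 1 transcript) was at 1.37 RPKM in both resting libraries, from 31 reads (95% interval 0.776 to 2.24 RPKM) and 37 reads (0.821 to 2.16). In Th0 it had 7.07, 17.7, 66.1, 75.2, 90.3 and 104 RPKM from 4 to 24 h. In Th1 the values of Il2 were 19.8, 56.9, 75.0, 81.3, 93.5 and 122 RPKM, and in Th2 they were 38.2, 53.8, 63.5, 89.5, 131 and 199.8 RPKM. All 18 cultures lay above both resting libraries, and the 24 h library was the highest of each series. The log2 change of Il2 against rest was 3.27 at 4 h (standard error of limma 0.52, adjusted p = 0.00015) and 6.19 at 24 h (0.52, adjusted p = 4.5e-08), and between 4 and 24 h it rose by another 2.92 (0.46, adjusted p = 4.5e-05).

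Il21 (ENSMUSG00000027718.8, chr3:37222759-37232636, minus strand), on the same chromosome, stayed under 3 RPKM throughout. Its resting libraries had 1.75 and 1.85 RPKM. The 6 Th1 libraries had 2.24, 2.70, 2.95, 2.38, 2.17 and 2.38 RPKM, all above both resting values, and the 6 Th0 libraries had 0.588, 0.684, 0.373, 0.822, 0.728 and 0.735 RPKM, all below them. In Th2, Il21 had 1.76, 2.19, 1.90, 1.17, 1.10 and 1.14 RPKM, between the other conditions at every time point. Averaged over the 3 conditions its log2 change was -0.28 at 4 h (standard error of limma 0.57, adjusted p = 0.74) and -0.35 at 24 h (0.57, adjusted p = 0.60). An exon of Il21 overlaps the antisense gene Gm12534, and since the sources used here do not say whether strand was used in counting, reads of both cannot be told apart.

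The 3 chains of the IL-2 receptor moved unequally. Il2ra (ENSMUSG00000026770.5, chr2:11642807-11693193, plus strand) had 19.6 and 18.1 RPKM at rest. It had 50.5, 97.8, 174, 213, 224 and 256 RPKM in Th0 and 72.8, 156, 245, 209, 242 and 276 RPKM in Th1. In Th2, Il2ra reached 118 RPKM at 4 h and 212 RPKM at 8 h, was highest at 12 h with 218 RPKM, and then had 202, 194 and 192 RPKM. All cultures were above rest. Il2ra rose by a log2 change of 1.98 at 4 h (standard error of limma 0.30, adjusted p = 0.0001) and 3.63 at 24 h (0.30, adjusted p = 3.9e-08), and by 1.65 between 4 and 24 h (0.27, adjusted p = 5.7e-05). Genes of regulatory T cells, which carry CD25 at rest, summed to 152 to 158 RPKM at rest and 291 to 344 at 24 h. Most of the higher sum was Tnfrsf18, with means of 43.9 and 194 RPKM, and 3 of the 6 genes, Foxp3, Ikzf2 and Nrp1, were below rest at 24 h. Their defining gene Foxp3 had a mean of 22.7 RPKM at rest, 36.1 at 4 h and 18.3 at 24 h, and its part in Il2ra was not tested.

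Il2rb (ENSMUSG00000068227.9, chr15:78479256-78495271, minus strand) had 108.5 and 112.5 RPKM at rest. In Th0 its values were 92.9, 107, 119, 156, 184 and 174 RPKM, in Th1 128, 138, 148, 172, 207 and 209.8 RPKM, and in Th2 121, 106, 108, 113, 117 and 112 RPKM. Th1 lay above rest at all time points and Th0 from 12 h on, whereas Th2 stayed within 0.957 to 1.10 times the resting mean. The change of Il2rb over the 3 conditions was 0.03 on the log2 scale at 4 h (standard error of limma 0.27, adjusted p = 0.94) and 0.53 at 24 h (0.27, adjusted p = 0.09).

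Il2rg (ENSMUSG00000031304.18, chrX:101264378-101268255, minus strand) had 328 and 334 RPKM at rest. The peak was 540 RPKM in Th0, reached at 12 h, and 537 RPKM in both Th1 and Th2, reached at 8 h, which is 1.62 to 1.63 times the resting mean. At 24 h it had 387, 415 and 303 RPKM in Th0, Th1 and Th2, and the last of these was the only culture below rest. No change of Il2rg passed the threshold, with 0.20 at 4 h (standard error of limma 0.14, adjusted p = 0.30) and 0.14 at 24 h (0.14, adjusted p = 0.39). The transcript shares exons with Gm20489 on the same strand, which had 46.1 to 95.1 RPKM, so the split of reads between both is uncertain.

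As a ratio within a library, Il2ra was at 0.181 and 0.161 times Il2rb at rest, 0.544 to 0.973 times at 4 h and 1.32 to 1.72 times at 24 h. The Th2 cultures had the highest ratio of the conditions at every time point, 2.00 at 8 h against 0.918 in Th0 and 1.13 in Th1.

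Among the alpha chains of the other receptors, Il7r changed most. Il7r (ENSMUSG00000003882.5, chr15:9505788-9530176, minus strand) had 108 and 107 RPKM at rest. It was above rest at 4 h in all conditions, with 280 RPKM in Th0 (95% interval 275 to 285), 327 in Th1 (321 to 333) and 133 in Th2 (129 to 137). From 8 h on Il7r had 218, 96.5, 63.4, 36.2 and 26.2 RPKM in Th0, 132, 68.0, 77.1, 35.1 and 16.8 RPKM in Th1, and 43.0, 20.6, 16.5, 11.6 and 13.3 RPKM in Th2. Th2 was thus below rest from 8 h and the other conditions from 12 h. The change at 4 h, 1.09 on the log2 scale, did not pass the threshold (standard error 0.76, adjusted p = 0.30, limma) over the 3 conditions, and without the Th2 cultures it was 1.49 (adjusted p = 0.000863). The fall of Il7r at 24 h was -2.54 against rest (0.76, adjusted p = 0.0075) and -3.64 against 4 h (0.68, adjusted p = 0.0002).

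Il15ra (ENSMUSG00000023206.16, chr2:11705290-11734317, plus strand, 18 transcripts) had 4.39 and 7.84 RPKM at rest, the widest relative gap between the resting libraries among the 9 genes. All 18 cultures were above both. Th0 was highest at 20 h with 26.3 RPKM, Th1 at 8 h with 25.1 RPKM and Th2 at 12 h with 18.3 RPKM, and at 24 h the 3 conditions had 14.5, 19.2 and 8.99 RPKM. Il15ra rose by 1.14 on the log2 scale at 24 h (standard error 0.40, adjusted p = 0.019, limma), against 0.64 at 4 h (0.40, adjusted p = 0.24), which was 0.25 without resting replicate 1 and 1.02 without resting replicate 2. The call at 24 h was lost without resting replicate 1, at 0.76 (adjusted p = 0.21), and without the Th1 cultures, at 0.90 (adjusted p = 0.13).

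Il21r (ENSMUSG00000030745.9, chr7:125603429-125633570, plus strand) had 63.0 and 65.2 RPKM at rest and 43.0 to 79.7 RPKM in the cultures. The lowest was Th1 at 4 h (95% interval 40.7 to 45.5) and the highest Th2 at 12 h (76.0 to 83.4). Its log2 change was -0.26 at 4 h (standard error of limma 0.19, adjusted p = 0.34) and -0.07 at 24 h (0.19, adjusted p = 0.77).

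The kinase Jak3 (ENSMUSG00000031805.17, chr8:71676296-71690575, plus strand) was the only member that fell at 4 h. It had 37.8 and 39.8 RPKM at rest. The values were 17.4, 15.6, 18.1, 26.2, 30.6 and 29.7 RPKM in Th0, 16.0, 19.5, 18.2, 28.4, 36.5 and 40.4 RPKM in Th1, and 18.4, 20.3, 21.7, 26.9, 28.4 and 21.2 RPKM in Th2. Of the 18 cultures, 17 lay below both resting libraries and Th1 at 24 h lay above them. Jak3 fell by 1.15 on the log2 scale at 4 h (standard error 0.19, adjusted p = 0.00026, limma). Between 4 and 24 h the change was 0.75 (0.17, adjusted p = 0.0011), under 2-fold, and without the Th2 cultures it was 1.03 and past the threshold (adjusted p = 0.00014). At 24 h Jak3 was at -0.39 against rest (0.19, adjusted p = 0.083), and at -0.62 without the Th1 cultures and -0.16 without the Th2 cultures. The T cell genes were also lower at 4 h than at rest, and their part in the fall of Jak3 was not tested. Jak3 shares exons with Insl3 on the same strand, which had 2.91 to 8.83 RPKM.

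Over the comparisons with time, 3 of the 9 genes passed the threshold at 4 h against rest, where 10.6% of all 10897 genes tested did. At 24 h against rest it was 4 of 9, with 30.1% of all genes, and at 24 h against 4 h it was 3 of 9, with 26.2% of all genes. The median log2 change of the 9 genes was 0.20, 0.14 and 0.50 in these 3 comparisons, against -0.04, -0.04 and -0.01 over all genes tested. The first and second share the resting libraries. The 3 cultures at a time point serve as its libraries, so a difference between conditions is part of the spread in these tests.

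**Figure D2:**
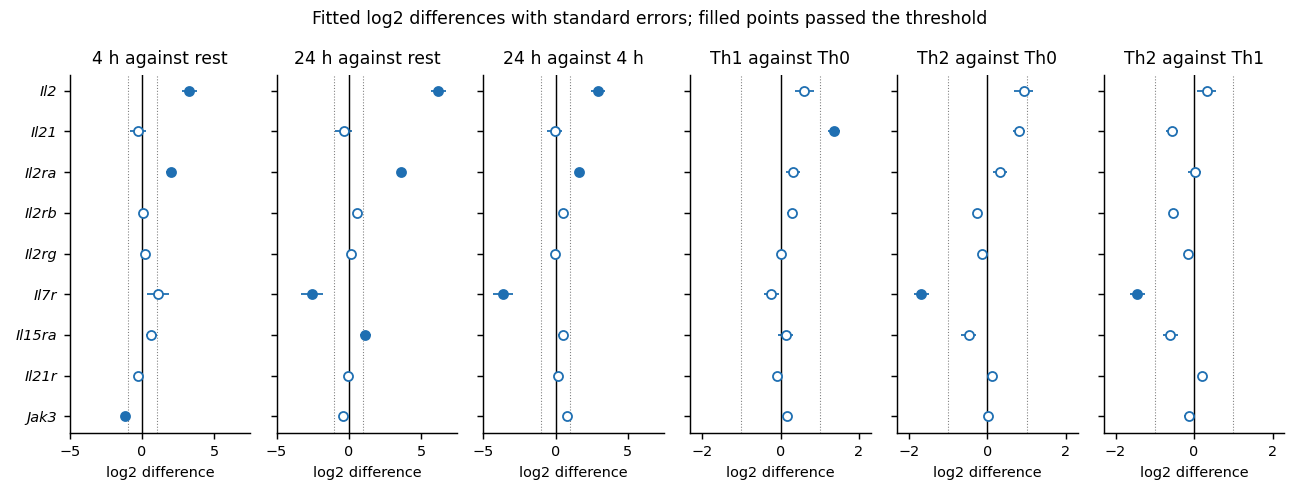
Fitted log2 differences (horizontal axes) of the 9 genes in 6 comparisons, 3 between times on a wider scale and 3 between conditions; bars are standard errors, dotted lines mark 2-fold, and filled points passed the threshold. Il2 and Il2ra rise in all 3 time comparisons, while Il7r is the only gene past the threshold between Th2 and either other condition.

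Conditions were compared over the 6 time points together, with the time point as a factor. Each condition had 1 library at a time point, so its 6 time points act as its repeats, all from 1 pool of cells. The p-values measure the scatter of a difference over time in these series, and variation between separate cultures was not measured. Il7r was lower in Th2 than in Th0 and Th1 at 6 of 6 time points, with a log2 difference of -1.68 against Th0 (standard error 0.19, adjusted p = 1.1e-05, limma) and -1.45 against Th1 (0.19, adjusted p = 5.7e-05). The ratio of Th2 to Th0 was lowest at 8 h, 0.197 (95% interval 0.186 to 0.209, counting error only), and 0.507 (0.457 to 0.562) at 24 h. Between Th1 and Th0 the estimate for Il7r was -0.23 (0.19, adjusted p = 0.56), with Th1 above Th0 at 2 of 6 time points.

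Il21 had more RPKM in Th1 than in Th0 throughout, at 6 of 6 time points, from 2.90-fold at 16 h to 7.90-fold at 12 h, and the log2 difference was 1.37 (standard error 0.15, adjusted p = 7.7e-05, limma). With the filter raised to a mean of 5 RPKM, Il21 was not tested. Th2 was also above Th0 at 6 of 6 time points, by 0.80 (0.15, adjusted p = 0.0011), and below Th1 at 6 of 6, by -0.56 (0.15, adjusted p = 0.019), both under 2-fold. The difference of Il21 between Th2 and Th0 was 1.11 with a pseudocount of 0.1, past 2-fold (adjusted p = 0.0011).

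For Il2 the order of the conditions differed between time points, with 1 library for each condition and time point. At 4 h Il2 was 5.41 times as high in Th2 as in Th0 (95% interval 4.33 to 6.80) and 1.93 times as high as in Th1 (1.65 to 2.27). At 12 h the ratio of Th2 to Th0 was 0.961 (0.870 to 1.06), within counting error, and at 24 h it was 1.91 (1.80 to 2.04). Over all time points the estimate for Il2 was 0.93 between Th2 and Th0 (standard error 0.24, adjusted p = 0.0097, limma), with Th2 above at 5 of 6 time points, which is under 2-fold. Without the 12, 16 or 20 h time point the difference was 1.13, 1.07 or 1.01 and past it. Against Th1 it was 0.32 (0.24, adjusted p = 0.43).

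Il2rb was lower in Th2 than in Th1 at 6 of 6 time points, by -0.54 on the log2 scale (standard error 0.11, adjusted p = 0.0034, limma), and Il15ra likewise at 6 of 6, by -0.60 (0.19, adjusted p = 0.052). Both differences were under 2-fold. Il2ra, Il2rg, Il21r and Jak3 had differences between -0.15 and 0.33 in all 3 comparisons of conditions. Of the 9 genes, 1 passed the threshold in each comparison: Il7r between Th2 and Th0 (2.01% of all 10737 genes tested), Il7r again between Th2 and Th1 (1.96% of all genes) and Il21 between Th1 and Th0 (0.494% of all genes). Pairs of these comparisons share a condition, so their values are not independent.

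**Figure D3:**
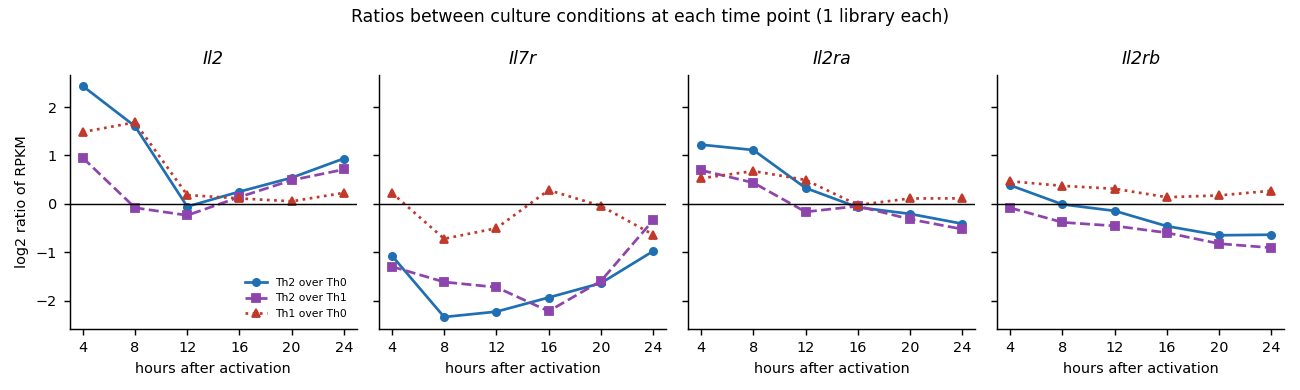
Log2 ratio of RPKM between conditions (vertical axis) at each time point for Il2, Il7r, Il2ra and Il2rb, with Th2 over Th0 in blue, Th2 over Th1 in purple and Th1 over Th0 in red, 1 library for each condition and time point. The Th2 over Th0 ratio of Il2ra goes from above 0 at 4 h (2.33 times) to below 0 at 24 h (0.751 times), and that of Il2rb from 1.30 to 0.642 times.

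A linear trend of each difference with time was also fitted and is given as the log2 change over the 20 h between 4 and 24 h. The fit treats the libraries as independent, so a slow drift of 1 series can also give a small p. Il2ra started higher in Th2 and ended lower. At 4 h the ratio of Th2 to Th0 was 2.33 and that of Th2 to Th1 1.62, and at 24 h they were 0.751 and 0.695. The trend of Il2ra was -1.78 against Th0 (standard error 0.22, adjusted p = 0.0013, limma) and -1.17 against Th1 (0.22, adjusted p = 0.021). For Il2rb the ratio of Th2 to Th0 went from 1.30 at 4 h to 0.642 at 24 h, a trend of -1.05 (0.16, adjusted p = 0.0045), and that of Th2 to Th1 from 0.944 to 0.533, a trend of -0.80 (0.16, adjusted p = 0.033), which is under 2-fold. For Il2 the trend was -1.42 against Th0 (0.58, adjusted p = 0.16) and 0.14 against Th1 (0.58, adjusted p = 0.93), neither past the threshold. A linear fit cannot show a ratio that falls and then rises, as that of Th2 to Th0 did for Il2. Under all 15 alternatives the trend of Il2ra against Th0 remained past the threshold, at -2.01 to -1.63. The other two calls did not hold throughout: Il2rb against Th0 was lost in 5 of 15 alternatives and Il2ra against Th1 in 4 of 15.

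The trend passed the threshold for 2 of the 9 genes with Th2 set against Th0 (3.93% of all genes), 1 with Th2 set against Th1 (0.95%) and 0 with Th1 set against Th0 (0.0279%), and these shares of all genes moved several-fold when a time point was left out. In the last comparison, Il2 had an estimate of -1.55 (standard error 0.58, adjusted p = 0.45, limma, unadjusted p = 0.018). Unadjusted p-values under 0.05 were also found there for Il2ra (0.015), and for none of the other 7 genes. The median trend of the 9 genes was -0.97 for Th2 against Th0 and -0.69 for Th2 against Th1, against 0.0017 and -0.07 over all genes tested. Of all genes past the threshold, 345 had a negative and 77 a positive trend in Th2 against Th0. In Th2 against Th1 it was 74 and 28.

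In the cells kept with actinomycin, Il2 had 19.2, 14.01, 5.50 and 10.0 RPKM after 0, 1, 2 and 4 h. The ratio to the 0 h library was 0.287 (95% interval 0.213 to 0.381) at 2 h and 0.522 (0.413 to 0.656) at 4 h, so the last library was above the one before it beyond counting error. Already at 0 h the level of Il2 was below the 75.2, 81.3 and 89.5 RPKM of the Th0, Th1 and Th2 cultures at 16 h. The actinomycin libraries lack the tag that the cultures have in their titles. Regulatory T cell genes summed to 387 to 437 RPKM in them, against 229 to 359 in the cultures, and NK cell genes to 33.5 to 40.5, against 76.7 to 228. Monocyte and macrophage genes, at 58.6 to 81.4 RPKM, lay within the 9.94 to 83.0 RPKM of the cultures. The part of these differences in the levels of the members was not tested. Il21 had 2.01, 1.83, 1.46 and 0.793 RPKM, each below the one before, and ended at 0.394 times its start.

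Of the receptors, Il7r had 15.1, 12.8, 27.8 and 29.4 RPKM, and the last value was 1.95 times the 0 h library (95% interval 1.75 to 2.16), under 2-fold. Its 0 h level lay near that of the Th2 culture at 16 h (16.5 RPKM) and below Th0 and Th1 (63.4 and 77.1 RPKM). Il2ra and Il2rg were also nearest to Th2 at 0 h, but Il15ra, Il21 and Il21r were nearest to Th1. Il2, Il2rb and Jak3 were nearest to Th0, so these levels do not settle the condition of the cells. Il2ra (204, 220, 222 and 228 RPKM) and Il2rg (427, 472, 473 and 506 RPKM) ended at 1.12 and 1.18 times their start, and Il2rb (141, 140, 133 and 118 RPKM) and Il21r (58.1, 61.6, 45.2 and 48.4 RPKM) at 0.838 and 0.834 times. Il15ra (19.4, 19.7, 17.1 and 25.7 RPKM) and Jak3 (21.4, 22.4, 20.7 and 32.5 RPKM) ended at 1.32 and 1.52 times, through the 4 h library alone. RPKM is relative to all RNA left in a library, so a higher value here is a higher share.

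**Figure D4:**
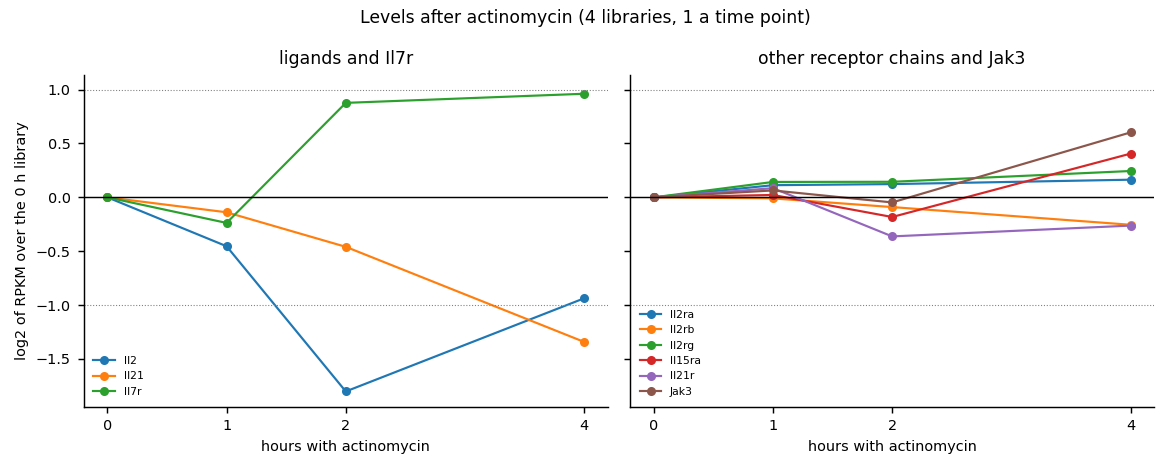
Log2 of RPKM over the 0 h library (vertical axis) against hours with actinomycin, for the ligands and Il7r (left) and for the other receptor chains and Jak3 (right), 1 library a time point; dotted lines mark 2-fold. Il21 ends below the lower line at 0.394 times its start, Il2 is lowest at 2 h and Il7r ends at 1.95 times.

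The 4 h library was past 2-fold from the 0 h library for 1 of the 9 genes, Il21, and for 11.3% of 10487 genes with at least 1 RPKM at 0 h, of which 783 were at or under 0.5 times and 404 at or over 2 times. The slopes of log2(RPKM + 0.1) per hour, fitted by least squares, were -0.32 per h for Il21 (standard error 0.04) and -0.25 for Il2 (0.26), at or below which 3.59% and 6.999% of these genes lay, and 0.29 for Il7r (0.14). The other 6 slopes lay between -0.08 and 0.15, and the median of all genes was -0.00194. By an exact two-sided permutation of the 4 time points, Il21 and Il2rb had p = 0.0417, the smallest that 24 orders can give, which 14.1% of all genes reached, and the smallest p adjusted over all genes was 0.295 by the same permutation. Without the 4 h library the slope of Il2 was -0.89 and those of Il15ra and Jak3 were below 0, at -0.09 and -0.02.

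A list of 37 further genes of the pathway, of which 31 passed the filter, is summarised beside the members. At 4 h against rest 10 rose and 3 fell, while of all genes tested 10.6% passed, 284 up and 868 down. Of the 4 inhibitors of cytokine signals in the list, Cish, Socs1, Socs2 and Socs3, the first 2 rose, with Cish, an inhibitor of the IL-2 signal, at 2.17 on the log2 scale (standard error 0.49, adjusted p = 0.0028, limma) and Socs1, an inhibitor of Jak kinases, at 2.98 (0.36, adjusted p = 1.2e-05). Socs2 and Socs3 were at 0.53 (adjusted p = 0.11) and 0.06 (adjusted p = 0.95). Stat5a rose by 1.76 (0.43, adjusted p = 0.0047), from 25.6 RPKM at rest to 122, 55.4 and 99.6 RPKM in Th0, Th1 and Th2. Il4ra, the partner of the gamma chain in the receptor for interleukin-4, rose by 1.99 (0.70, adjusted p = 0.040), with 225 and 363 RPKM in Th0 and Th2 and 48.1 RPKM in Th1, against 39.6 at rest.

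At 24 h against rest 11 of the 31 rose and 9 fell, with 30.1% of all genes passing (1389 up and 1891 down), and at 24 h against 4 h 5 rose and 9 fell, with 26.2% of all genes (1418 up and 1439 down). Jak1, which pairs with Jak3, fell by 1.27 against rest (standard error 0.17, adjusted p = 8.6e-06, limma), from 298 RPKM to 113 to 131 RPKM. Foxo1, a factor that is known to keep Il7r on in resting T cells, fell by 1.37 (0.13, adjusted p = 3.0e-07). It was already at -0.86 at 4 h (0.13, adjusted p = 0.00013, limma), under 2-fold, when Il7r was above rest in all conditions. Klf2, another gene of resting T cells, fell by 3.39 (0.54, adjusted p = 4.8e-05). Of the other regulators of Il2 or Il7r in the list, Fos, Jun and Nfatc2 also fell at 24 h. Gfi1 and Rel rose, and Nfatc1 was at 0.11 (adjusted p = 0.71, limma). The part of these factors in the changes of Il2 and Il7r was not tested.

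Between conditions, the test was passed by 3 of the 31 genes in Th2 and Th0 (2.01% of all genes), by 6 in Th2 and Th1 (1.96%) and by 2 in Th1 and Th0 (0.494%). Cish was higher in Th2 than in Th1 by 1.17 (standard error 0.10, adjusted p = 1.2e-06, limma) and Stat5a by 1.0 (0.11, adjusted p = 1.7e-05). Klf2 was lower in Th2 than in Th0 by -1.31 (0.12, adjusted p = 1.2e-06). The trend with time passed the threshold for 6 genes against Th0 (3.93% of all genes) and for 4 against Th1 (0.95%). For Th1 against Th0 it was 0 (0.0279%). The 6 were Ccnd2, Gfi1, Gzmb, Lta, Myc and Nfatc1, all with a fall of Th2 relative to Th0. This was also the commoner direction over all genes with that trend, of which 345 fell and 77 rose. Il7, the ligand of Il7r, was at 0 in both resting libraries and had at most 0.0441 RPKM in the cultures. Il15 had 1.01 RPKM at rest and at most 0.775 RPKM in the cultures.

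The genes most like each member were found by Pearson's r of log2(RPKM + 0.5) over the 20 time-course libraries, among 10897 genes. The libraries share their time points and, in each series, 1 pool of cells, so r is a description. Among the members themselves, Il2 and Il2ra were most alike (r = 0.97), followed by Il2rg and Il15ra (r = 0.86), and Il7r was the member least like Il2, Il2ra, Il2rb, Il15ra, Il21r and Jak3, with r of -0.65 to -0.18. Over all genes, Phf6, Adss and Txndc9 were nearest to Il2 (r = 0.98 each) and Ppa1, Psmb2 and Shmt1 to Il2ra (0.99, 0.98 and 0.98). Nearest to Il7r were Ccng2, Trim12a and Gimap4 (0.98 each), and nearest to Il21 were Sytl3, F2rl2 and Prf1 (0.78, 0.74 and 0.70), the lowest values of any member. Il2rb had Gzmc, Max and Irf8 (0.90, 0.87 and 0.87), Il21r had Zyx, Trim8 and Ikzf1 (0.90, 0.88 and 0.86), and Jak3 had Fermt3, Inppl1 and 0610010K14Rik (0.95, 0.92 and 0.92). For Il2rg the nearest was Gm20489, which shares its exons (0.98), before Erf and Gm16181 (0.92 each), and for Il15ra they were Psmg4, Gm20489 and Sh3rf1 (0.90, 0.87 and 0.87).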

How the data were processed

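RNA from 24 libraries had been sequenced on an Illumina NextSeq. The authors deposited 1 table of RPKM values with 22010 entries, of which 1 has no name and only values of 0. The submitters' processing notes name BWA and GRCm38, and the counting step is not given in the sources used here. Mapped reads per library were recovered from 4330 genes with 1 transcript, for which 64.5 to 69.1% of values under 100 reads were whole within 0.01. Since whole reads came out for fewer than nearly all values, no count test was run. The depth was set so that the commonest value stood for 2 reads, which fixes the excess of values of 2 (3136) over values of 1 (1909). Values of 4 reads (1547) were also more frequent than values of 3 (927), and values of 6 (890) than of 5 (661). Intervals (exact Poisson and conditional binomial, 95%) were therefore computed on read pairs and cover counting error only. The test was limma 3.58.1 in R 4.3.3 with the trend option of eBayes and Benjamini-Hochberg adjusted p-values. It used 20 libraries for times and 18 for conditions, and was tried on simulated data. Of 200 genes set to a log2 change of 2, the fit found 196 at 4 h, 200 between Th2 and Th0 and 165 in the trend. Of the unchanged genes it called 1, 0 and 6. The simulated noise was independent between libraries, so it does not cover libraries of 1 series that vary together. One read stood for a length of 1144 bases in Il2, 3208 in Il7r and 2607 in Il21r, the last above its longest annotated transcript (2499). The alternatives were other pseudocounts, filters and scalings, no intensity trend, and fewer libraries. Left out in turn were each resting or actinomycin library, all cultures of each condition, or each time point. Python 3.11.15 was used otherwise. Named were the members, a pathway list given by counts with examples chosen after their values were seen, and the 3 genes of highest r for each member. Values of 1 gene of the pathway list are not reported here, though it is in the counts. Members, lists and tests were chosen with earlier results of these data known.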

Additional observations from a re-analysis of the deposited data

Results flagged for a closer look

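In 3 cases the difference between conditions changed with time by a test of the trend itself, given as log2 change over 20 h. It was -1.78 for Il2ra in Th2 against Th0 (adjusted p = 0.0013, limma), -1.17 for Il2ra in Th2 against Th1 (adjusted p = 0.021) and -1.05 for Il2rb in Th2 against Th0 (adjusted p = 0.0045). The first held in all 15 alternatives, whereas the second was lost in 4 of 15 and the third in 5 of 15. Each condition was 1 series, so a drift of that series cannot be told apart from an effect of the condition.

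Values of Il21 lay above rest in Th1 and below rest in Th0. It was above both resting libraries in 6 of 6 Th1 libraries and below both in 6 of 6 Th0 libraries, and the mean of Th1 was 1.81 RPKM above that of Th0 (2.47 against 0.655 RPKM, with 1.80 RPKM at rest). The opposite direction from rest was not tested, and the values of Il21 have no interval of counting error. The difference between Th1 and Th0 itself was tested, with a log2 value of 1.37 (adjusted p = 7.7e-05, limma).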

How the results depend on the processing

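Of the 1188 values of single genes under the alternatives, 1126 stayed on the same side of the threshold with the same sign, 11 lost the call, 14 gained it and 37 changed sign, and none of those that changed sign had passed the threshold. The cause was not tested unless fewer genes or libraries give it. Libraries came 1 to a culture and time point, which limits the precision of every value. Libraries could not be paired by replicate because no 2 groups share 2 replicate numbers. The conditions were compared within time points instead, which pairs them by time.

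With the filter raised to a mean of 5 RPKM, 646 genes instead of 1152 had changed at 4 h, as fewer genes were tested, and 0 of the members differed between Th1 and Th0, as Il21 was not tested. Rises made up 24.7% of the changed genes at 4 h and 42.3% at 24 h, against 43.5% and 54.0% under quantile normalization, 31.0% and 51.7% with median-of-ratios scaling and 34.2% and 52.1% with the higher filter. The median of all genes at 24 h moved from -0.04 to 0.13 under quantile normalization and to 0.10 with median-of-ratios scaling, and against this median the rises of Il2, Il2ra and Il15ra and the fall of Il7r kept their direction. With 1 time point left out, or a pseudocount of 0.1 (2), the number of members past the threshold between Th2 and Th0 was between 1 and 2.

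The numbers of genes with a trend depended most on the setting. For Th2 against Th0 it was 422, with 202 under no filter, 76 with only the 2 series compared and 82 (without 20 h) to 1978 (without 4 h) with 1 time point left out. For Th2 against Th1 it was 102, with 55 under no filter, 229 with only the 2 series compared and 22 (without 20 h) to 278 (without 8 h). For Th1 against Th0 it was 3, with 6 at a pseudocount of 0.1, 1 with median-of-ratios scaling or no intensity trend, 8 under quantile normalization and 0 (without 20 or 24 h) to 45 (without 4 h). Members with a trend against Th0 numbered 1 under upper-quartile scaling, quantile normalization or with only the 2 series, and 1 (without 20 h) to 5 (without 4 h). In the latter Il7r, Il15ra, Il21r and Jak3 passed the threshold and Il2rb did not. Against Th1 they numbered 0 under no filter, 2 with only the 2 series, and 0 (without 20 or 24 h) to 2 (without 8 h).

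Values that changed sign were as follows, on the log2 scale. Under quantile normalization Il21 was 0.12 at 4 h and 0.34 at 24 h against rest and 0.21 between these times, Il2rb was -0.026 at 4 h, Il2rg -0.030 at 24 h and -0.031 between Th1 and Th0, and Il2ra -0.018 between Th2 and Th1. With median-of-ratios scaling Il21r was 0.073 at 24 h against rest and Il2rg 0.0036 between 4 and 24 h. With only 12 to 24 h, Il2ra was -0.091 and -0.26 in Th2 against Th0 and Th1, Il21r -0.082 and Jak3 -0.072 in Th2 against Th0, and Il15ra -0.096 and Il2rg -0.080 in Th1 against Th0.

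Left out in turn were 1 resting library, all cultures of 1 condition, or 1 time point. The changes from rest then ranged from -0.55 to 0.11 for Il21 and from -0.058 to 0.17 for Il2rb at 4 h, and from -0.14 to 0.015 for Il21r at 24 h. Between 4 and 24 h the ranges were -0.20 to 0.13 for Il21 and -0.16 to 0.071 for Il2rg. Between Th2 and Th0 they were -0.014 to 0.20 for Il21r and -0.042 to 0.13 for Jak3, between Th2 and Th1 -0.12 to 0.12 for Il2ra and -0.22 to 0.011 for Jak3, and between Th1 and Th0 -0.033 to 0.24 for Il15ra and -0.021 to 0.072 for Il2rg. Trends ranged from -0.32 to 1.67 for Il7r against Th0, from -0.55 to 1.35 for Il7r and -0.34 to 1.15 for Il2 against Th1, and from -0.54 to 0.33 for Il7r and -0.68 to 0.11 for Il21r in Th1 against Th0. A lone resting library is taken to vary like the other groups.

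The slope of Il21 after actinomycin was -0.25 with a pseudocount of 0.5, and that of Il2rb -0.081 with median-of-ratios scaling. With 1 of the 4 libraries left out, slopes were -0.89 to -0.076 for Il2, -0.37 to -0.22 for Il21, 0.017 to 0.061 for Il2ra, -0.082 to -0.045 for Il2rb, 0.036 to 0.072 for Il2rg, 0.24 to 0.44 for Il7r, -0.091 to 0.15 for Il15ra, -0.18 to -0.065 for Il21r and -0.023 to 0.20 for Jak3. The end of each range farthest from the slope over all 4 libraries came without the 4 h library, except for Il2rg, where it came without the 0 h library.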
